A study of Mus musculus with 27 samples.

Results

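The NR4A receptors are the 3 genes Nr4a1, Nr4a2 and Nr4a3, and they were taken by gene symbol from the 24825 genes listed for each sample. Nr4a3 was chosen by its measured FPKM at day 7, because its forskolin response was large only in cells that express full-length NFIA, so its values at day 7 are given below as a description with no test. Nr4a1 and Nr4a2 were added as the rest of the family, and the one test given for Nr4a3 compares the 2 NFIA proteins at day 0, in samples that the choice did not use. The samples were C2C12 cells, a mouse myoblast line, in 3 cell types: control cells (ctrl), cells expressing full-length NFIA, and cells expressing the Δpro#3 mutant, which lacks a short C-terminal stretch of NFIA called pro#3. NFIA is a transcription factor that drives brown fat differentiation, and both proteins were introduced with the pMXs retroviral vector. Each cell type was sampled at day 0, at day 7 of an adipogenic protocol, and at day 7 after 4 hours of 10 μM forskolin, with 3 samples in each of the 9 groups. All day 7 cells had received isobutylmethylxanthine, indomethacin, dexamethasone, insulin, T3 and rosiglitazone at first, and insulin, T3 and rosiglitazone after that. The model has a limit that touches every result: the mRNA of a whole dish was measured, so fewer cells of a type and less RNA per cell cannot be told apart.

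NR4A receptors are orphan nuclear receptors whose ligand pocket is filled with bulky side chains, so that their activity is set mostly by how much of them is made. They are immediate-early genes: a rise in cyclic AMP (cAMP) activates protein kinase A (PKA), which phosphorylates CREB at CRE elements in their promoters, and transcription starts within minutes. Forskolin raises cAMP by activating adenylyl cyclase directly. In muscle and in brown fat these receptors are known as early targets of adrenergic signalling that act on genes of glucose and lipid metabolism.

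Expression was measured by stranded polyA RNA-seq and given as FPKM, fragments scaled to gene length and library size, which allows levels to be compared between genes. The 27 libraries held 9567769 to 27230965 fragments. Nfia itself was at 225 to 594 FPKM in every sample labelled full-length NFIA or Δpro#3 and at 0.0885 to 0.879 FPKM in 8 of the 9 control samples. Its level differed between the proteins: at day 0 it was 225 to 250 FPKM with NFIA and 397 to 423 FPKM with Δpro#3, at day 7 457 to 528 and 374 to 480 FPKM, and after forskolin 497 to 594 and 262 to 344 FPKM, with overlap at day 7 without forskolin. The exception among the controls was control day 0 replicate 2, at 7.35 FPKM, and the comparisons with control cells at day 0 are given with and without it. Whether it held material of another sample was not tested. The cells differed in kind by day 7. The summed FPKM of 21 adipocyte markers was 20151 to 22121 in NFIA-expressing cells, 1135 to 1179 in control cells and 1202 to 3047 in Δpro#3 cells, with 1 Δpro#3 sample (replicate 1) at the upper end. The summed FPKM of 22 muscle markers ran the other way, at 2837 to 3918, 19971 to 23542 and 21826 to 22998. Ucp1, the defining gene of heat-producing fat cells, was at 0 in all 9 samples of day 7 without forskolin. Markers of other cell types (22 genes) summed to 18 to 36.6 FPKM over all day 7 samples, and Hbb-b1, of red blood cells, was at 0 in each of them.

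The sequence just before the start of each gene is shown because CRE half-sites occurred there in all 3 receptors, with no measure of their function. In the RefSeq promoters (GRCm38.p6), the 250 bases before the annotated start held 4 CRE half-sites in each receptor, TGACG or its reverse complement CGTCA, shown in capitals. Nr4a1 is at chr15:101266596-101266845 (+ strand), Nr4a2 at chr2:57124004-57124253 (- strand) and Nr4a3 at chr4:48045055-48045304 (+ strand), each printed 5′ to 3′ along its gene.
Nr4a1: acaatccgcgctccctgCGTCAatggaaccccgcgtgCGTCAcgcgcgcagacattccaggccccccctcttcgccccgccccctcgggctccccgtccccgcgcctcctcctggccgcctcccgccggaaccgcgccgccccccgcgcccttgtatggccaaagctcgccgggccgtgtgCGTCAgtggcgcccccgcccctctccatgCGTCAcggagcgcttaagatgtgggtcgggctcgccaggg
Nr4a2: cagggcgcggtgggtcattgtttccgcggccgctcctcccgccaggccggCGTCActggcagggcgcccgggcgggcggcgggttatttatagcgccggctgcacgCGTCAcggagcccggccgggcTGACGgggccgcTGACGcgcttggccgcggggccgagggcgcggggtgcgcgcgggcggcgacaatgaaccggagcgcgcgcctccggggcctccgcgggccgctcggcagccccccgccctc
Nr4a3: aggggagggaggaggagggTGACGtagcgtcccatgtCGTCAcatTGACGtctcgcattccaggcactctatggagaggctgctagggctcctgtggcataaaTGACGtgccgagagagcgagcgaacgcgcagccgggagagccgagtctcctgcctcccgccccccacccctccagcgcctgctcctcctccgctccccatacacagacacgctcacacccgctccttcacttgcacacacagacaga

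Of the 32851 promoters in the table, 17.8% held 1 or more half-sites in this window and 0.137% held 4 or more, a threshold set after the receptors had been counted. These windows are rich in G and C (74.4%, 80% and 63.6% for Nr4a1, Nr4a2 and Nr4a3), and among promoters within 5 percentage points of the same G and C content the share with 4 or more was 0.289%, 0.323% and 0.364%. The half-sites lay at positions -233, -213, -69 and -40 from the start of Nr4a1, at -200, -144, -123 and -111 in Nr4a2, and at -231, -213, -205 and -147 in Nr4a3. The full CRE, TGACGTCA, was in none of the 3 windows and in 1.55% of all promoters. The NBRE, AAAGGTCA, to which NR4A proteins bind as monomers, was also in none of them (1.34% of all). The NFI half-site TTGGC, on either strand, occurred at 1 place in Nr4a1, at 1 place in Nr4a2 and not in Nr4a3, against 41.5% of promoters with at least 1. These matches describe letters in a window and were not measured as binding.

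Nr4a1 (also called Nur77) was the most abundant NR4A receptor in all 9 groups, and forskolin raised it in all 3 cell types, most in the NFIA-expressing cells. The gene (ENSMUSG00000023034.6) spans chr15:101097277-101105223 on the + strand of NCBIM37, the assembly that mm9 is made from. At day 7 without forskolin, its level was 15.4, 15.8 and 15.3 FPKM in the control samples, 12.2, 12.3 and 12.1 FPKM in the NFIA-expressing samples and 11.2, 9.81 and 9.88 FPKM in the Δpro#3 samples. After forskolin it was 26.95, 31.9 and 25.6 FPKM in control, 138, 120.5 and 120.5 FPKM in NFIA-expressing and 17.1, 20.5 and 22.1 FPKM in Δpro#3 samples. In each cell type, all treated samples were thus above all untreated ones. The mean rose from 12.2 ± 0.119 to 126 ± 9.91 FPKM (SD, n = 3) in NFIA-expressing cells, a 10.4-fold change, from 15.5 ± 0.288 to 28.2 ± 3.29 FPKM in control cells (1.82-fold) and from 10.3 ± 0.791 to 19.9 ± 2.55 FPKM in Δpro#3 cells (1.93-fold).

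On the log2(FPKM + 1) scale the response of Nr4a1 was 3.27 (SE 0.0884) in NFIA-expressing cells (limma, adjusted p = 7.5e-14), 0.81 in control cells (limma, adjusted p = 4.7e-06) and 0.88 in Δpro#3 cells (limma, adjusted p = 1.08e-06). With NFIA this was the 6th largest rise among 12245 genes tested, of which 0.596% rose by more than 3-fold with an adjusted p under 0.05. The background of genes that rose with an adjusted p under 0.05 at any size was 7.05% in control, 13.9% in NFIA-expressing and 11.9% in Δpro#3 cells. The response was 2.45 log2 units larger with NFIA than in control cells (SE 0.125, limma, adjusted p = 1.21e-09), where 0.392% of all genes had a difference this way of more than 3-fold. The Δpro#3 response differed from that with full-length NFIA by -2.39 log2 units (limma, adjusted p = 2.72e-09, background 0.180% for more than 3-fold). Between Δpro#3 and control cells the response of Nr4a1 differed by 0.07 log2 units, with a 95% interval from -0.20 to 0.33 (limma, adjusted p = 0.824), and the value was -0.01 without Δpro#3 forskolin replicate 3.

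Nr4a2 (Nurr1), the member best known from dopamine neurons, was scarce at day 7 and rose with forskolin in NFIA-expressing and Δpro#3 cells. It lies at chr2:56959241-56976414 on the - strand (NCBIM37, ENSMUSG00000026826.5). Before forskolin its level was 1.14, 1.05 and 1.12 FPKM in control, 0.968, 0.783 and 0.811 FPKM in NFIA-expressing and 0.687, 0.790 and 0.759 FPKM in Δpro#3 samples. These levels rest on 26 to 59 fragments per sample, so counting error is a large part of their spread. After forskolin it was 1.46, 1.22 and 1.62 FPKM in control, 11.5, 10.1 and 12.2 FPKM in NFIA-expressing and 1.58, 2.20 and 2.75 FPKM in Δpro#3 samples. The NFIA-expressing samples stood clear of the rest, while the control and Δpro#3 samples overlapped. Within each cell type, control cells included, all treated samples were above all untreated ones. The fold change of the mean FPKM was 13.2 with NFIA, 1.30 in control cells and 2.92 in Δpro#3 cells.

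The log2 response of Nr4a2 was 2.72 (SE 0.109) with NFIA (limma, adjusted p = 1.12e-11), the 13th largest rise, and 0.85 in Δpro#3 cells (limma, adjusted p = 1.65e-05). In control cells it was 0.21, with a 95% interval from -0.02 to 0.44 (limma, adjusted p = 0.206). The response exceeded that of control cells by 2.52 with NFIA (limma, adjusted p = 1.23e-08) and differed by -1.88 between Δpro#3 and NFIA-expressing cells (limma, adjusted p = 5.76e-07). Nr4a2 was the member for which Δpro#3 and control cells differed in the test, by 0.64 (limma, adjusted p = 0.0231), where 2.47% of all genes had a larger response in Δpro#3 cells. This call did not hold when only the groups compared were fitted (limma, adjusted p = 0.0524). It held, with larger values of 1.05 and 1.19, with a pseudocount of 0.1 and with limma-voom (adjusted p = 0.0137 and 0.0245). It was also lost, with 0.51 to 0.65 log2 units and an adjusted p (limma) of 0.0501 to 0.0655, without control replicate 1 or Δpro#3 replicate 1 of untreated day 7, or without control replicate 1 or 2 or Δpro#3 replicate 2 or 3 of the forskolin samples.

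Nr4a3 (Nor1) was the member the set was built on, and it went from the lowest level of the 3 cell types before forskolin to the highest after it in the NFIA-expressing cells. It spans chr4:48058025-48099319 on the + strand (NCBIM37, ENSMUSG00000028341.3). At day 7 without forskolin it was at 5.06, 4.76 and 5.62 FPKM in control, 1.31, 1.18 and 1.02 FPKM in NFIA-expressing and 1.64, 2.19 and 2.24 FPKM in Δpro#3 samples, and the cell types did not overlap. After forskolin it was at 10.8, 12.1 and 9.69 FPKM in control, 47.5, 46.5 and 51.1 FPKM in NFIA-expressing and 5.63, 4.38 and 4.90 FPKM in Δpro#3 samples. The mean was multiplied by 41.5 with NFIA (from 1.17 ± 0.145 to 48.4 ± 2.42 FPKM, SD, n = 3), by 2.11 in control cells and by 2.46 in Δpro#3 cells. As a difference of FPKM, the rise was 47.2 with NFIA, 5.72 in control cells and 2.95 in Δpro#3 cells. These values chose the gene and carry no test. Its log2 response was 4.51 with NFIA, 0.95 in control and 0.98 in Δpro#3 cells.

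**Figure D1:**
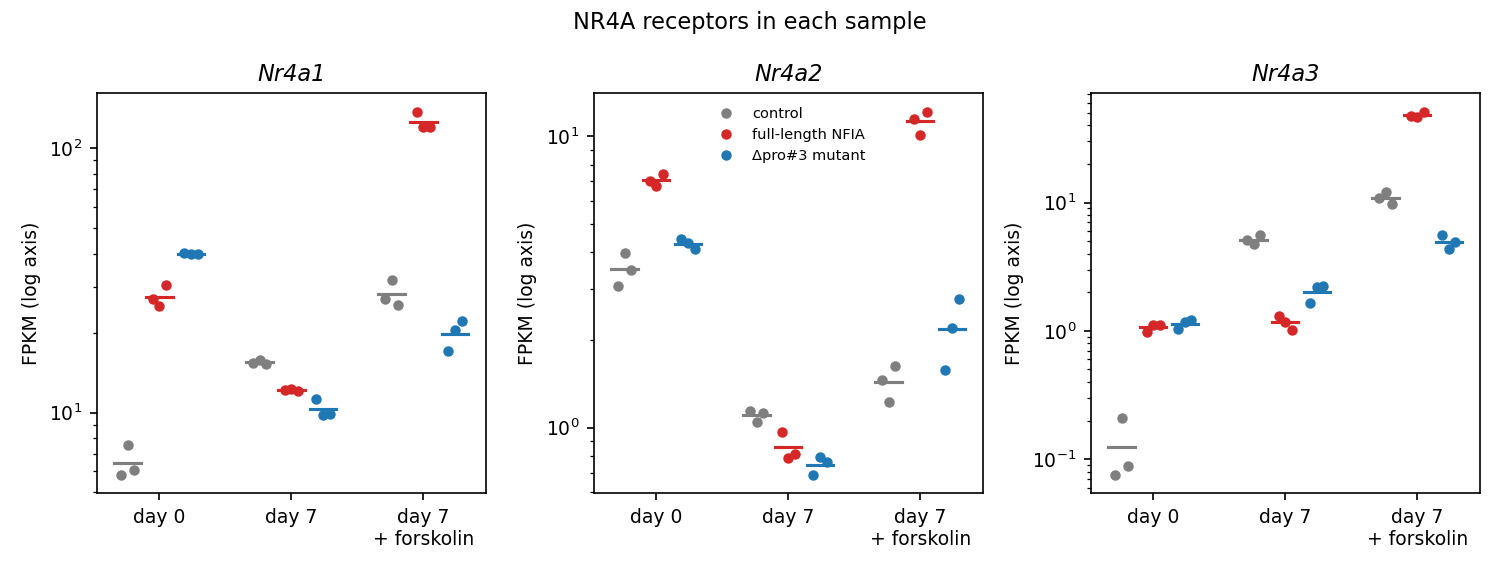
FPKM (log axis) of Nr4a1, Nr4a2 and Nr4a3 in each of the 27 samples, by day and forskolin, with 1 point per sample, a bar at the mean of 3 samples and a colour for each cell type. In all 3 panels the NFIA-expressing samples after forskolin are the highest of all samples, at 120.5 to 138 FPKM for Nr4a1, 10.1 to 12.2 FPKM for Nr4a2 and 46.5 to 51.1 FPKM for Nr4a3.

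The direct comparison of the cell types after forskolin gave the same order at the top for the tested receptors and a different one below it. Nr4a1 was 4.48-fold higher with NFIA than in control cells (log2 2.13, limma, adjusted p = 1.4e-08) and Nr4a2 7.86-fold higher (log2 2.33, limma, adjusted p = 4.02e-08), where 4.25% of all genes were more than 3-fold higher. Against NFIA-expressing cells, Δpro#3 cells had less Nr4a1 (log2 -2.61) and less Nr4a2 (log2 -1.96), where 3.31% of genes were lower by more than 3-fold (limma, adjusted p = 4.21e-09 and 2.29e-07). Against control cells, Δpro#3 cells had less Nr4a1 (log2 -0.48, limma, adjusted p = 0.00322, background 27.1% of genes lower). Nr4a2 was higher in Δpro#3 than in control cells (log2 0.37, limma, adjusted p = 0.0365, background 19.5% higher), with overlapping samples. Nfia itself was also lower in Δpro#3 than in NFIA-expressing cells after forskolin (262 to 344 against 497 to 594 FPKM), and its part in the differences between them was not tested. The call for Nr4a2 between Δpro#3 and control cells was lost when only the groups compared were fitted (limma, adjusted p = 0.0575) and without a filter on low values (0.077). It was lost as well, with 0.24 to 0.38 log2 units and an adjusted p (limma) of 0.0761 to 0.139, without control replicate 1 or 2 or Δpro#3 replicate 2 or 3. For Nr4a3 the means were 4.45-fold higher with NFIA than in control cells and 2.19-fold lower in Δpro#3 than in control cells, as a description.

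The untreated day 7 samples showed that the larger response with NFIA did not start from a higher level. Nr4a1 was lower in NFIA-expressing than in control cells (log2 -0.32, limma, adjusted p = 0.000615, where 41.1% of genes were lower) and lower still in Δpro#3 cells (-0.55 against control, limma, adjusted p = 5.76e-05, background 27.5%, and -0.22 against NFIA, limma, adjusted p = 0.00728, background 29.4%). Nr4a2 was lower in Δpro#3 than in control cells (-0.27, limma, adjusted p = 0.0169), a call lost without control replicate 1 (-0.26, limma, adjusted p = 0.0559). Its difference between NFIA-expressing and control cells was -0.18 (limma, adjusted p = 0.0576), and it passed the threshold without NFIA replicate 1 (-0.23, limma, adjusted p = 0.0374), with no filter on low values (0.0217) and with no variance trend (0.0176). Δpro#3 and NFIA-expressing cells differed by -0.09 in Nr4a2, with a 95% interval from -0.26 to 0.09 (limma, adjusted p = 0.359). Nr4a3, as a description, was 4.41-fold lower with NFIA and 2.55-fold lower with Δpro#3 than in control cells.

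At day 0, before any adipogenic agent, Nr4a1 and Nr4a2 were higher with either NFIA protein than in control cells. Nr4a1 was at 5.81, 7.53 and 6.07 FPKM in control, 26.8, 25.3 and 30.4 FPKM in NFIA-expressing and 40.3, 39.8 and 39.7 FPKM in Δpro#3 samples. It was thus highest with the mutant, 4.25-fold above control with NFIA (log2 1.93, limma, adjusted p = 3.94e-09) and 6.18-fold above it with Δpro#3 (log2 2.46, limma, adjusted p = 1.44e-09, the 27th largest rise of 12105 genes). The shares of genes higher by more than 3-fold in these comparisons were 2.46% and 0.859%. Nr4a1 also differed between Δpro#3 and NFIA (log2 0.53, limma, adjusted p = 0.000223, where 33.4% of genes were higher with Δpro#3).

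Nr4a2 followed another order at day 0, with 3.07, 3.97 and 3.47 FPKM in control, 7.04, 6.77 and 7.41 FPKM in NFIA-expressing and 4.43, 4.31 and 4.09 FPKM in Δpro#3 samples. It was 2.02-fold above control with NFIA (log2 0.85, limma, adjusted p = 7.88e-07, where 37.7% of genes were higher) and 1.22-fold with Δpro#3 (log2 0.23, limma, adjusted p = 0.0127, background 32.5%). It was lower with Δpro#3 than with NFIA (log2 -0.61, limma, adjusted p = 1.66e-05, background 31.9% lower). Nr4a3 was at 0.0752, 0.210 and 0.0889 FPKM in control samples, on 10 to 32 fragments each. It was at 0.982, 1.10 and 1.10 FPKM with NFIA and at 1.03, 1.17 and 1.21 FPKM with Δpro#3. The means were 8.53-fold and 9.11-fold above control (0.88 and 0.93 on the log2(FPKM + 1) scale, and 3.16 and 3.28 with limma-voom on fragments). Nr4a3 passed the filter on low values (a mean of 0.5 FPKM over the 9 samples) only through the groups in which it was high, so no test against control is given for it. NFIA and Δpro#3 cells differed in Nr4a3 by 0.05, with a 95% interval from -0.11 to 0.20 (limma, adjusted p = 0.554).

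Control replicate 2, the sample with the raised Nfia level, had the highest level of all 3 receptors among the day 0 controls. Without it the differences from control were larger: 2.03 with NFIA and 2.56 with Δpro#3 for Nr4a1 and 0.92 and 0.31 for Nr4a2, and each of these stayed past the threshold. In FPKM, Nr4a3 was then 12.95-fold and 13.8-fold above a control mean of 0.0821 FPKM, so the folds of 8.53 and 9.11 depend on this sample. Muscle markers were also lower at day 0 in cells with either protein (summed FPKM 153 to 160 with NFIA, 468 to 475 with Δpro#3 and 1919 to 2041 in control cells). Adipocyte markers were higher, at 912 to 966 FPKM with NFIA and 1101 to 1173 FPKM with Δpro#3 against 555 to 574 FPKM in control cells, which is the order of Nr4a1. Nfia was higher with Δpro#3 (397 to 423 FPKM) than with NFIA (225 to 250 FPKM), as Nr4a1 was, while Nr4a2 was lower. The part of these genes in the day 0 levels was not tested.

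From day 0 to day 7 without forskolin, Nr4a1 moved in opposite directions in control cells and in cells with either NFIA protein. It rose 2.40-fold in control cells (log2 1.15, limma, adjusted p = 3.66e-10, where 36.0% of 12408 genes rose). It fell with NFIA (log2 -1.11, limma, adjusted p = 5.28e-10) and with Δpro#3 (log2 -1.86, limma, adjusted p = 9.01e-13), where 46.5% and 46.7% of genes fell. Nr4a2 fell in all 3 cell types, by 1.10 in control, 2.12 in NFIA-expressing and 1.60 in Δpro#3 cells on the log2 scale (limma, adjusted p = 1.91e-10, 2.49e-14 and 1.68e-12), where 42.7% of genes fell in control cells. In mean FPKM these falls of Nr4a2 were 3.18-fold, 8.29-fold and 5.74-fold. Without control day 0 replicate 2 the change in control cells was 1.25 for Nr4a1 and -1.02 for Nr4a2 (limma, adjusted p = 1.01e-10 and 1.41e-09). Nr4a3 went from 0.125 ± 0.0740 to 5.15 ± 0.434 FPKM in control cells (SD, n = 3), from 1.06 ± 0.0701 to 1.17 ± 0.145 FPKM with NFIA and from 1.14 ± 0.0970 to 2.02 ± 0.331 FPKM with Δpro#3, given with no test. The mean in control cells was multiplied by 41.3, or by 62.7 without that replicate.

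The differences between these changes were tested after the directions had been seen. For Nr4a1 the change differed from that of control cells by -2.26 with NFIA and by -3.01 with Δpro#3 (limma, adjusted p = 1.32e-11 and 5.34e-12), where 3.09% and 0.822% of genes had a difference of this direction and more than 3-fold. For Nr4a2 the same differences were -1.03 and -0.50 (limma, adjusted p = 6.91e-08 and 0.000499), where 40.1% and 25.9% of genes passed in that direction. Between Δpro#3 and NFIA-expressing cells the change differed by -0.75 for Nr4a1 and by 0.53 for Nr4a2 (limma, adjusted p = 1.19e-05 and 0.000161, background 29.5% lower and 33.9% higher). Without control day 0 replicate 2 the differences from control became -2.36 and -3.11 for Nr4a1 and -1.10 and -0.58 for Nr4a2, all still past the threshold.

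Over the 9 groups, the order of the levels differed from receptor to receptor. For Nr4a1 it ran, from lowest to highest mean, from control at day 0 through Δpro#3, NFIA and control at day 7, then Δpro#3 with forskolin, NFIA at day 0, control with forskolin and Δpro#3 at day 0 to NFIA with forskolin. Only the neighbours NFIA at day 0 and control with forskolin (27.5 and 28.2 FPKM) had overlapping samples. For Nr4a2 the 3 untreated day 7 groups were lowest and the forskolin-treated control and Δpro#3 cells next, all below the 3 day 0 groups, with NFIA and forskolin at the top. Its overlapping neighbours were Δpro#3 and NFIA at day 7 (0.745 and 0.854 FPKM) and control and Δpro#3 with forskolin (1.43 and 2.18 FPKM). For Nr4a3 the 3 day 0 groups were lowest, and NFIA at day 0, Δpro#3 at day 0 and NFIA at day 7 (1.06, 1.14 and 1.17 FPKM) overlapped in turn. So did Δpro#3 with forskolin and control without it (4.97 and 5.15 FPKM).

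The make-up of the family shifted with time. The 3 receptors summed to 10.1 ± 1.44 FPKM in control cells at day 0 and to 186 ± 9.90 FPKM in NFIA-expressing cells after forskolin (SD, n = 3). Nr4a1 made up 64.1% to 88.1% of the sum in every group mean. Nr4a2 made up 34.8% of it in control cells at day 0 and between 3.60% and 7.95% in the 6 groups of day 7. Nr4a3 went the other way, from 1.18% in control cells at day 0 to 23.6% at day 7 and 26.9% after forskolin. Without control day 0 replicate 2, the day 0 sum was 9.29 FPKM, with 63.9% Nr4a1, 35.2% Nr4a2 and 0.882% Nr4a3. In NFIA-expressing cells Nr4a3 was 8.20% ± 0.855 of the family before forskolin and 26.1% ± 1.84 after it, next to 15.5% ± 2.96 and 18.6% ± 3.96 in Δpro#3 cells.

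**Figure D2:**
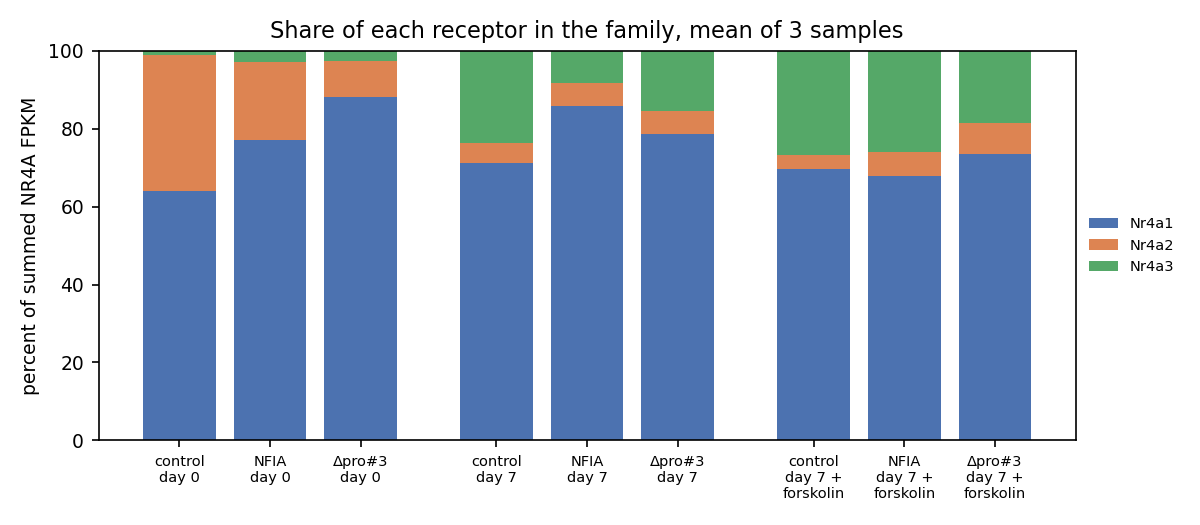
Share of each NR4A receptor in the summed NR4A FPKM (percent, mean of 3 samples) in the 9 groups. Nr4a1 is the largest part of every bar, Nr4a2 falls from 34.8% to 5.07% between day 0 and day 7 of control cells, and Nr4a3 is 26.1% after forskolin with NFIA.

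Other genes that answer cAMP gave the setting for this response. A list of 56 names of cAMP early-response genes matched 54 genes, of which 50 could be tested. Of these, 29 rose and 3 fell in control cells, 37 rose and 4 fell with NFIA, and 33 rose and 3 fell with Δpro#3, with median log2 responses of 0.45, 0.96 and 0.50 beside -0.047, -0.15 and -0.059 for all genes. Of all genes, 7.05% rose and 13.5% fell in control, 13.9% and 41.5% with NFIA, and 11.9% and 23.9% with Δpro#3. Rises of more than 3-fold were found in control cells for Pde4b, a cAMP phosphodiesterase (0.245% of all genes), in Δpro#3 cells for 3 genes (0.457%) and in NFIA-expressing cells for 9 genes (0.596%), led by Fosl1 (log2 2.21), an AP-1 subunit. The 9 became 14 with median-ratio scaling or a pseudocount of 0.1. Nr4a1 and Nr4a2 (3.27 and 2.72) were thus above all 50 list genes in NFIA-expressing cells. The response was larger with NFIA than in control cells for 32 of the 50 and smaller for 3 (9.16% and 21.5% of all genes), none by more than 3-fold in either direction, against 2.45 for Nr4a1 and 2.52 for Nr4a2. The highest were Irs2 (1.54), an insulin receptor substrate, Atf3 (1.52), a stress-induced transcription factor, Zfp36 (1.47), which speeds mRNA decay, and Csrnp1 (1.45), another immediate-early gene. Atf3 went from 29.9 ± 1.08 to 126 ± 7.90 FPKM with NFIA and from 59.7 ± 3.92 to 86.0 ± 4.57 FPKM in control cells (SD, n = 3), so it too started lower and ended higher. Pde4b and Fosl1 had the largest rises of the list in control cells, at 1.97 and 1.51. Between NFIA-expressing and control cells they differed by 0.23 (limma, adjusted p = 0.101) and 0.70 (limma, adjusted p = 0.00662). The Δpro#3 response exceeded that of control cells for 10 of the 50 list genes and was smaller for 0. Over all 12245 genes these counts were 302 and 306. The 10 included Fosl1 (0.95, limma, adjusted p = 0.00407) and Zfp36 (0.54, limma, adjusted p = 0.0219).

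In the machinery between cAMP and CREB, no change of more than 3-fold was called, except for 1 rise in control cells with limma-voom. Of 37 tested genes of cAMP, PKA and CREB signalling, 7 rose and 7 fell in control cells, 8 rose and 10 fell with Δpro#3, and 9 rose and 18 fell with NFIA, beside 7.05% of all genes higher and 13.5% lower in control, 11.9% and 23.9% with Δpro#3, and 13.9% and 41.5% with NFIA. The number that fell depended on the scaling, at 9 in place of 18 with NFIA and 4 in place of 7 in control cells after median-ratio scaling. Akap12, which anchors PKA, fell with NFIA (log2 -1.02), with no change called in control cells, and differed between them by -1.02 (limma, adjusted p = 0.000212). Adcy9, an adenylyl cyclase, and Crtc1, a CREB coactivator, also had lower responses with NFIA (differences of -0.74 and -0.63), as did Prkar2b, a regulatory subunit of PKA (-0.50, limma, adjusted p = 2.14e-05, 0.000176 and 0.00743). Adcy9 fell in Δpro#3 cells too (log2 -0.51, limma, adjusted p = 1.76e-05), with a difference from control of -0.63 (limma, adjusted p = 0.000779). For Akap12, Crtc1 and Prkar2b no such difference was called (limma, adjusted p = 0.668, 0.375 and 0.764). Pde3b, a phosphodiesterase, rose in control cells (1.32) and Hdac5, a histone deacetylase, fell (-0.99), and both moved the same way with NFIA (0.96 and -1.19).

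With Nr4a3 left out, since it was chosen on this response, Vdr (the vitamin D receptor), Nr4a1 and Nr4a2 had the 3 highest log2 responses of the nuclear receptors tested in NFIA-expressing and in Δpro#3 cells. In control cells Vdr and Nr4a1 came first, and Nr4a2 (0.21) was below Esr1, Rarb and Rara (0.51, 0.30 and 0.23). Of 46 other receptors 27 were tested, and with forskolin 5 rose and 3 fell in control cells, 4 rose and 14 fell with NFIA, and 8 rose and 8 fell with Δpro#3. Over all genes, 7.05% rose and 13.5% fell in control, 13.9% and 41.5% with NFIA, and 11.9% and 23.9% with Δpro#3. The count of those that rose in control cells went down to 2 when only the groups compared were fitted, or without control replicate 2 of untreated day 7, or without control replicate 1 or 2 of the forskolin samples, and to 3 without control replicate 3 of untreated day 7 or with a filter of 5 FPKM. The count that fell there was 1 with median-ratio scaling. With Δpro#3 the count that rose was 3 with the filter of 5 FPKM, and the count that fell was 4 with only the groups compared and 5 without Δpro#3 replicate 2 or 3 of the forskolin samples. Vdr was the one that rose by more than 3-fold, and it did so in all 3 cell types: from 12.6 ± 1.13 to 112 ± 4.41 FPKM in control, from 20.05 ± 2.58 to 302 ± 3.39 FPKM with NFIA and from 17.1 ± 1.22 to 69.3 ± 1.98 FPKM with Δpro#3 (SD, n = 3). Its log2 response was 3.05, 3.85 and 1.96. Its response exceeded that of control cells by 0.80 with NFIA (limma, adjusted p = 5.51e-05), less than for Nr4a1 and Nr4a2 in value, and was lower than control with Δpro#3 (-1.09, limma, adjusted p = 1.98e-05). Thra (thyroid hormone), Esr1 (oestrogen) and Rxra, the common heterodimer partner, had smaller responses with NFIA than in control cells, by -0.73, -0.70 and -0.67 (limma, adjusted p = 1.15e-05, 0.000571 and 5.65e-05).

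**Figure D3:**
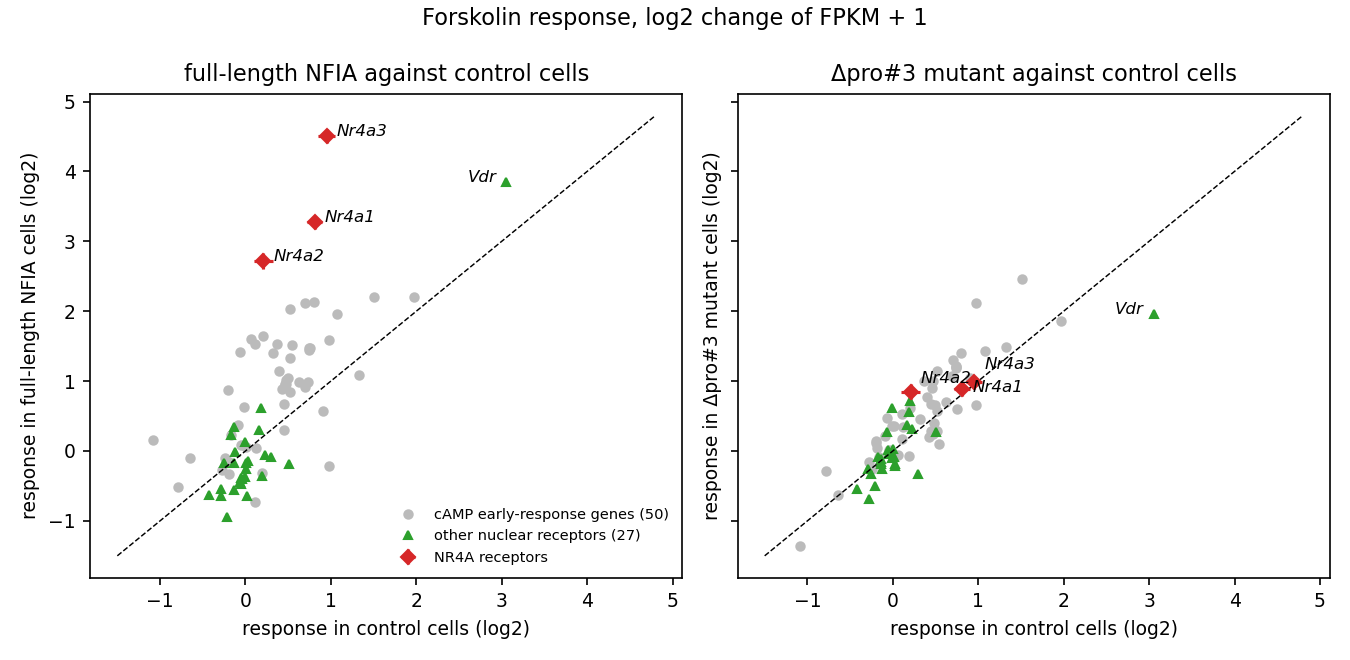
Forskolin response (log2 change of FPKM + 1, mean of 3 against mean of 3 samples) in control cells on the x axis, and in full-length NFIA cells (left) or Δpro#3 cells (right) on the y axis. Circles are 50 cAMP early-response genes, triangles 27 other nuclear receptors, diamonds the NR4A receptors with their SE, and the dashed line marks equal responses. With NFIA, Nr4a1, Nr4a2 and Nr4a3 (3.27, 2.72 and 4.51) lie far above the line, and with Δpro#3 (0.88, 0.85 and 0.98) they lie among the early-response genes.

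Muscle genes that have been linked to NR4A receptors are counted beside the shares over all genes. Of 23 tested, 4 rose and 3 fell in control cells, 6 rose and 10 fell with NFIA, and 1 rose and 9 fell with Δpro#3 (5 without Δpro#3 forskolin replicate 3). The shares of all genes that rose and fell were 7.05% and 13.5% in control, 13.9% and 41.5% with NFIA, and 11.9% and 23.9% with Δpro#3. Ppargc1b, a coactivator of mitochondrial genes, rose with NFIA (log2 0.73) and fell in control cells (-0.34), a difference of 1.07 (limma, adjusted p = 7.61e-07). Pdp1, a pyruvate dehydrogenase phosphatase, fell less with NFIA than in control cells (difference 0.90, limma, adjusted p = 1.94e-06). Pdk4, the opposing kinase, rose with NFIA from 73.7 ± 5.36 to 122.8 ± 14.7 FPKM (difference from control 0.62, limma, adjusted p = 0.031). Mstn, the muscle growth inhibitor, was scarce (0.549 to 1.47 FPKM in the day 7 group means) and rose in control cells (0.66, difference -0.62, limma, adjusted p = 0.0222). Scd1, of lipid metabolism, and Ucp2 rose in control cells (1.31 and 1.20) and with NFIA (0.70 and 1.83), with differences of -0.62 (limma, adjusted p = 0.0338) and 0.63 (limma, adjusted p = 0.0871). The list is of known links and is no measure of NR4A activity here.

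As a description of likeness, the group means of each receptor over the 9 groups were correlated with those of 7130 genes that varied, on the log2(FPKM + 1) scale. The genes most like Nr4a1 were Vdr (Pearson r = 0.897), Gla, a lysosomal galactosidase (0.885), Hsd17b7, of sterol synthesis (0.877), and Slc2a13, an inositol transporter (0.825). Those most like Nr4a2 were Xpo1, the nuclear export receptor (0.992), Tuba1c, a tubulin (0.943), Far1, of ether lipid synthesis (0.940), and the row listed as Mir7013 (0.922). Xpo1 went from 19.96 to 50.6 FPKM with forskolin in NFIA-expressing cells and from 18.9 to 23.1 FPKM in control cells. Those most like Nr4a3 were Csrnp1 (0.948), Tatdn2 (0.945), Slc25a25, a mitochondrial nucleotide carrier (0.943), and 5730408K05Rik (0.930). By Spearman correlation over the 27 samples the first places went to Vdr, Far1 and Adamts1 (rho 0.804, 0.946 and 0.941). The genes named for Nr4a1 were then in places 1, 3, 2 and 9, those for Nr4a2 in places 2, 3, 1 and 191, and those for Nr4a3 in places 63, 17, 41 and 667, so the choice for Nr4a3 depended on the measure. The receptors themselves were less alike, with r of 0.703 for Nr4a1 and Nr4a2, 0.761 for Nr4a1 and Nr4a3, and 0.300 for Nr4a2 and Nr4a3. Spearman rho for the same pairs over the 27 samples was 0.666, 0.494 and -0.004. All these points share libraries and groups, and no p is given.

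The high NR4A levels after forskolin were found in the cells with the most adipocyte and the least muscle marker mRNA. After forskolin, the adipocyte markers summed to 22060 to 23339 FPKM with NFIA, against 1523 to 1657 FPKM in control and 1542 to 2092 FPKM in Δpro#3 cells, and the muscle markers to 2436 to 2936, 19852 to 23189 and 18709 to 21028 FPKM. With forskolin the median log2 response of the marker lists with NFIA was -0.32 over 19 adipocyte markers (3 rose and 5 fell) and -0.3 over 22 muscle markers (0 rose and 10 fell), beside -0.15 over all genes, of which 13.9% rose and 41.5% fell. In Δpro#3 cells the medians were -0.61 for adipocyte markers (2 rose and 12 fell) and -0.2 for muscle markers (1 rose and 7 fell), beside -0.059 over all genes, of which 11.9% rose and 23.9% fell. In control cells they were 0.012 (2 rose and 1 fell) and -0.025 (2 rose and 2 fell), beside -0.047, 7.05% and 13.5%. The Δpro#3 adipocyte sums were 3047, 1202 and 1355 FPKM before forskolin and 2092, 1542 and 1558 FPKM after it. Untreated replicate 1 was the highest of these, and the Δpro#3 marker counts were not made without it. Without forskolin, NFIA-expressing cells had the same contrast of markers and less Nr4a1 than control cells. The part of the markers in the NR4A response was not tested, and the NFIA protein and the fat cell fate cannot be told apart by this design.

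**Figure D4:**
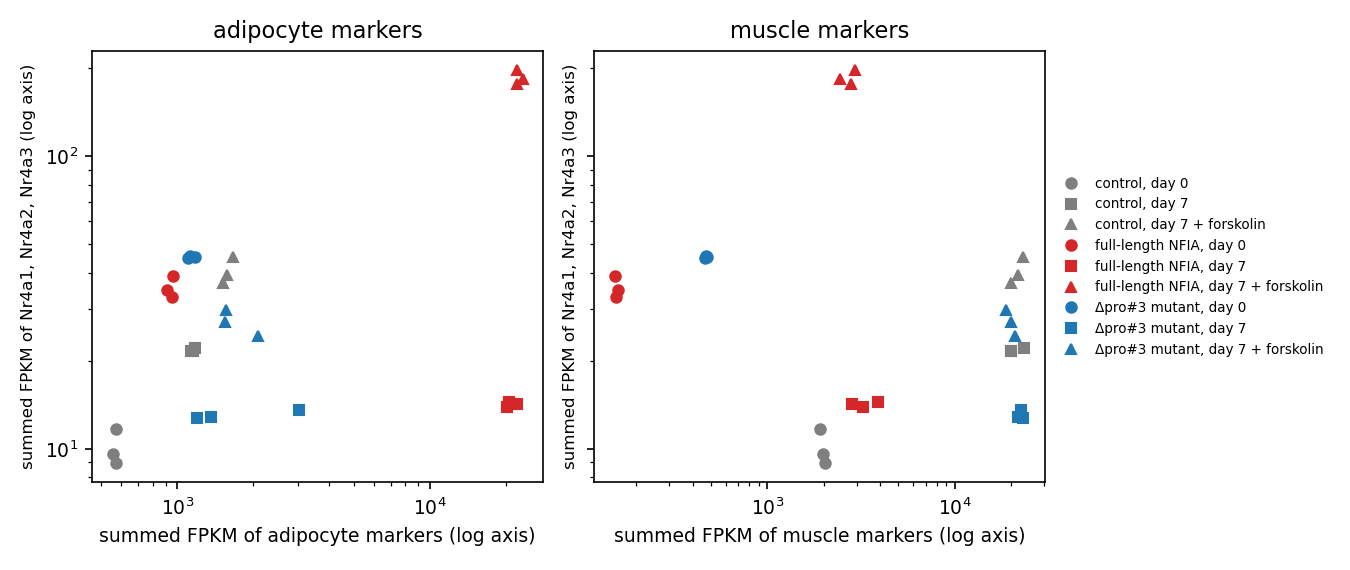
Summed FPKM of the 3 NR4A receptors (y, log axis) against the summed FPKM of 21 adipocyte markers (left) or 22 muscle markers (right) on the x axis (log), 1 point per sample, with colours for cell types and symbols for day and forskolin. NFIA-expressing samples at day 7 have the highest adipocyte sums with and without forskolin, and only those with forskolin have the high NR4A sum (mean 186 FPKM, against 14.2 FPKM without it).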

How the data were processed

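Polyadenylated RNA of C2C12 cells was sequenced from TruSeq stranded libraries. The authors aligned reads to mm9 with STAR 2.5.3a, kept uniquely mapped reads, and deposited FPKM from the matched-strand fragments of each gene. FPKM multiplied by gene length gave whole fragments for all values within 0.05 of a fragment. Groups were taken from the labels, and nothing in them says that the 3 samples of a group came from separate cultures, so p-values measure the spread between samples, which may be technical. No 2 replicates were alike within sampling noise (chi-square per gene 1.55 to 15 over 27 pairs).

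Differences were tested with limma 3.58.1 (R 4.3.3, variance trend) on log2(FPKM + 1), which understates changes of low genes, with Benjamini-Hochberg adjustment over all genes with a mean of 0.5 FPKM or more in the samples fitted. Rose, fell and passed mean an adjusted p under 0.05. The fits held 18 samples (day 7 with and without forskolin, or day 0 and day 7) or 9 samples (1 condition). The method was tested on simulated data. Alternatives were a pseudocount of 0.1, median-ratio scaling, no filter, a filter of 5 FPKM, only the groups compared, no trend, a replicate block, limma-voom on fragments, and leaving out each sample. Replicate numbers did not pair the samples.

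The receptors and gene lists were chosen with earlier results of these data known. Genes named beside the receptors were, per list, the 4 with the largest difference of the response between NFIA and control cells among those with an adjusted p under 0.05 for it, and the 2 with the largest response in control cells, and the 4 genes most like each receptor among those with a group mean of 1 FPKM or more and a range of 1 log2 unit or more. Fosl1, Pde4b and Adamts1 were also named as extremes. Promoter sequences are from RefSeq (GRCm38.p6), in which all 3 receptors matched by symbol.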

Additional observations from a re-analysis of the deposited data

Results flagged for a closer look

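The results below were singled out because an effect differed between cell types in a test of the difference itself. The forskolin response with full-length NFIA exceeded that of control cells by 2.45 log2 units for Nr4a1 (limma, adjusted p = 1.21e-09) and 2.52 for Nr4a2 (limma, adjusted p = 1.23e-08), and the Δpro#3 response differed from that with NFIA by -2.39 and -1.88 (limma, adjusted p = 2.72e-09 and 5.76e-07). In each of these, all 3 NFIA-expressing samples after forskolin were above the samples of the other cell types. The response of Nr4a2 in Δpro#3 cells exceeded that of control cells by 0.64 (limma, adjusted p = 0.0231), with overlapping samples after forskolin, and it was the one of these 11 differences that lost its call under an alternative.

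The change from day 0 to day 7 also differed between cell types. Relative to control cells it differed for Nr4a1 by -2.26 with NFIA and -3.01 with Δpro#3 (limma, adjusted p = 1.32e-11 and 5.34e-12), and for Nr4a2 by -1.03 and -0.50 (limma, adjusted p = 6.91e-08 and 0.000499). Between Δpro#3 and NFIA-expressing cells it differed by -0.75 for Nr4a1 and 0.53 for Nr4a2 (limma, adjusted p = 1.19e-05 and 0.000161). These differences were tested after the directions had been seen. The gap-to-range test for an outlying sample was not applied, since every group had 3 samples.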

How the results depend on the processing

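Of the values for the receptors, 1306 over all alternatives kept their direction and side of the threshold (or, without a test, moved by less than 1 SD), 34 moved, 14 lost the call, 3 gained it and 5 changed sign. Values of Nr4a3 and Nr4a2 moved with the scale. The response of Nr4a3 with NFIA was 5.26 with a pseudocount of 0.1, 4.65 with median-ratio scaling and 5.37 with limma-voom, next to 4.51. In Δpro#3 cells it was 1.26 and 1.25 with that pseudocount and with limma-voom, next to 0.98, and in control cells 1.09 with limma-voom, next to 0.95. The difference of its response was 4.20 and 4.29 (NFIA against control), -4.00 and -4.12 (Δpro#3 against NFIA), and 0.20 and 0.17 (Δpro#3 against control, next to 0.04, and -0.06 to 0.11 when 1 sample was left out). The sign of that last value turned without control replicate 3 (-0.02) or Δpro#3 replicate 1 (-0.06) of day 7, or without control replicate 3 or Δpro#3 replicate 1 of the forskolin samples (-0.04 each). At day 0 the difference of Nr4a3 from control was 2.42 and 3.16 with NFIA, next to 0.88, and 2.5 and 3.28 with Δpro#3, next to 0.93, with the pseudocount of 0.1 and limma-voom. For Nr4a2 these settings gave, in that order, 1.40 and 1.54 for the response in Δpro#3 cells (next to 0.85), 0.34 and 0.35 in control cells (0.21), and 1.05 and 1.19 for their difference (0.64). At day 7 they gave -0.34 and -0.39 for NFIA against control (-0.18), -0.51 and -0.54 for Δpro#3 against control (-0.27), and after forskolin limma-voom gave 0.65 for Δpro#3 against control (0.37). From day 0 to day 7, limma-voom gave -1.66 in control cells (-1.10) and -2.49 in Δpro#3 cells (-1.60), and the 2 settings gave -0.80 and -0.82 for the difference of these changes (-0.50). None of these Nr4a2 calls changed. For Nr4a1 the difference of response between Δpro#3 and control cells was -0.01 to 0.17, with -0.01 without Δpro#3 forskolin replicate 3.

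For Nr4a2 the difference of response between Δpro#3 and control cells was 0.64 and lost its call with only the groups compared (limma, adjusted p = 0.0524), and it was 0.51 to 0.78 with 1 sample left out. At day 7 the difference between NFIA and control cells was -0.18 and passed with no filter or no trend, and it was -0.23 to -0.15 with 1 sample left out. The difference between Δpro#3 and control cells was -0.29 to -0.24 at day 7 with 1 sample left out. After forskolin it was 0.37, with the call lost with no filter or only the groups compared, and 0.24 to 0.51 with 1 sample left out. The cause of these changes was not tested. With a filter of 5 FPKM, Nr4a2 could not be fitted, nor Nr4a3 at day 0, at day 7 or over both.

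Median-ratio scaling moved the median response of all genes with NFIA from -0.151 to -0.041 and the share of calls that were rises from 25% to 43.9% (control 34.3% to 51.7%, difference of NFIA and control 29.9% to 45.3%, Δpro#3 against NFIA 72.9% to 51.3%), while Nr4a1 and Nr4a2 kept their calls. Rises of more than 3-fold numbered 73 with NFIA, 116 with a pseudocount of 0.1 and 121 with limma-voom. List counts moved in 32 of 1248 cases, where small shifts of a count lay within the tolerance and were not taken as a move. With scaling the early-response genes had 2 falls and 14 rises of more than 3-fold with NFIA (14 also with the pseudocount of 0.1, next to 9, and 7 to 10 with 1 sample left out), and in control cells 2 such rises with limma-voom (1 to 2 with 1 sample left out). The signalling genes had 9 falls with NFIA and 4 in control cells with scaling (4 to 8 with 1 sample left out), and 1 rise of more than 3-fold with limma-voom in control cells. The other nuclear receptors had 3 rises in control cells with the filter of 5 FPKM and 2 with only the groups compared (2 to 5 with 1 sample left out), and 1 fall with scaling. With Δpro#3 they had 3 rises with the filter of 5 FPKM, 4 falls with only the groups compared (5 to 8 with 1 sample left out) and 2 rises of more than 3-fold with limma-voom. The muscle genes had 2 rises with Δpro#3 with scaling, the filter of 5 FPKM, no trend or limma-voom (1 to 2 with 1 sample left out), and 5 to 9 falls with 1 sample left out.

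The replicate block, a term for the replicate number, changed no call of the receptors. Under it no list count moved past the tolerance for such counts, and 1718 genes rose with NFIA, next to 1698. Deviations of samples with the same number correlated by 0.0177 on average (-0.179 to 0.358) in the forskolin fit, with 12 of 45 pairs over 0.1, and 7 of 18 samples were closest to their own number. Depth limits Nr4a2 at day 7 (26 to 59 fragments) and Nr4a3 in control cells at day 0 (10 to 32 fragments).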
